A study of Mus musculus with 2 samples.

Results

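The genes described here encode the proteins of the cytosolic ribosome. They were taken as the table rows whose symbol is *Rpl* or *Rps* followed by digits and an optional a or x, together with *Rplp0*, *Rplp1*, *Rplp2* and *Rpsa*, and without the rows named as pseudogenes (-ps) and the paralogs whose symbol ends in l. This rule found 76 of the 23282 rows, which is 0.326% of the rows, with 30 genes of the small (40S) and 46 of the large (60S) subunit. The RNA-seq compared splenic naïve CD4 T cells of *Fak* fl/fl mice that received a control retrovirus with cells of the same genotype that received RV-Cre, a retrovirus carrying Cre recombinase, which removes the floxed part of *Fak*. Both cultures were activated with anti-CD28 (5 μg/ml, soluble) and anti-CD3ε (10 μg/ml, bound to the plate) before the virus was added. Both were then cultured for 3 days in the Th17-polarizing mix. It held IL-6 (50 ng/ml), TGFβ1 (1 ng/ml), TNF (1 ng/ml), IL-1β (2 ng/ml), anti-IFNγ (5 μg/ml) and anti-IL-4 (5 μg/ml). GFP+ transduced cells were sorted, and QuantSeq 3′ libraries, in which reads come from near the 3′ end of a transcript, were made from 500 ng of total RNA. There was 1 library per condition, so no difference has a replicate check, no test was run and no p-value is given. The control sample carries the genotype label WT but a title that gives *Fak* fl/fl cells and the control virus, and the title was followed. No library combined Cre with an intact *Fak*, so effects of Cre and of the loss of *Fak* cannot be told apart.

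A ribosome is built from a small subunit, which holds the mRNA and reads its codons, and a large subunit, which joins amino acids into a chain. Each subunit is a body of ribosomal RNA decorated by proteins, nearly all of them needed in equal numbers, and their mRNAs are among the most abundant of a growing cell. Many of these mRNAs begin with a C followed by a run of pyrimidines, the 5′ terminal oligopyrimidine (5′TOP) motif, through which mTORC1 and the RNA-binding protein LARP1 control their translation and stability. T cells enlarge and make many ribosomes after activation, before they divide.

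The control library held 13799264 counted reads and the RV-Cre library 12305010. *Ptk2*, the symbol under which the tables list *Fak*, had 110 control reads and 31 RV-Cre reads, which gave a ratio of normalised counts of 0.318 (95% counting interval 0.206 to 0.477). Normalised counts were read counts scaled by the TMM method, and a log2 ratio is the RV-Cre value minus the control value of log2(normalised count + 1), so that values below 0 mean fewer reads in the RV-Cre library. Wherever a pair of values is given without a label, the control value comes first. The intervals follow from the split of a gene's reads between the libraries (exact, Clopper-Pearson) and address counting error only. Reads copied from 1 molecule are not independent, so the intervals may be too narrow even for that. *Rn45s*, the precursor of ribosomal RNA, took 8.50% of the control reads and 14.6% of the RV-Cre reads, and its part in the values below was not tested beyond the scaling without it. All 6 CD4 T cell markers were above the expression minimum, with 15032 and 21390 reads in total. The markers of other cells also moved. Of the CD8 T or NK cell markers 3 of 5 passed the minimum (684 and 911 reads in all), of the B cell markers 4 of 4 (42 and 108 reads) and of the myeloid markers 3 of 5 (101 and 175 reads), while *Ncr1* and *Adgre1* had 0 reads in the control library and *Klrb1c* had 0 in the RV-Cre library. Their part in the ribosomal protein values was not tested.

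Pyrimidine runs at the start of transcription are what this family is known for, and the starts of the genes at the ends of the range of ratios are shown for this reason. The windows below run from 40 bases before the annotated start of transcription to 30 bases from it, in the 5′ to 3′ direction of the gene, from RefSeq on GRCm38.p6. Of the 5 lowest and 5 highest log2 ratios, the 7 genes with an entry are shown (not *Rpl30*, *Rps20* and *Rps14*), and capitals mark the longest run of at least 6 pyrimidines that begins with C within 20 bases before to 30 bases after the start.
*Rps2* (low ratio, chr17:24720023-24720092, plus strand): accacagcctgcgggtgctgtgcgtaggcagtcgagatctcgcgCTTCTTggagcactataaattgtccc
*Rps23* (low ratio, chr13:90923082-90923151, plus strand): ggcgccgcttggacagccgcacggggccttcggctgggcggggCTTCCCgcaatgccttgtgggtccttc
*Rps6* (low ratio, chr4:86857338-86857407, minus strand): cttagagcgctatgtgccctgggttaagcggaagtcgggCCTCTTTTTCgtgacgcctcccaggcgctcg
*Rpl11* (low ratio, chr4:136053364-136053433, minus strand): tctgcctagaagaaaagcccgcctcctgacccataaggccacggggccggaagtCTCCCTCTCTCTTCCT
*Rps27* (high ratio, chr3:90213619-90213688, minus strand): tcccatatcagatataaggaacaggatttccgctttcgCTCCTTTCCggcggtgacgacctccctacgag
*Rps15* (high ratio, chr10:80292391-80292460, plus strand): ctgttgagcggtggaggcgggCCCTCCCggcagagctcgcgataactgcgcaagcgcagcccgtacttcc
*Rps16* (high ratio, chr7:28350649-28350718, plus strand): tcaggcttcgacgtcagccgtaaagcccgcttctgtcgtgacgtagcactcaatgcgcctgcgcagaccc
The runs were short in *Rps2* and *Rps23*, with 6 bases each, and reached 10 bases in *Rps6* and 16 in *Rpl11*. Genes with low and with high ratios both held a run near the start, *Rps16* had none of this length, and only in *Rps6* and *Rps27* did it cover the annotated start with a C there.

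Across the promoter table, 56 of the 76 ribosomal protein genes had an entry of 250 bases before to 50 after the start, and a gene was counted when any of its entries matched. A run of this kind was present in 43 of the 56 (76.8%), against 38.2% of all 27025 genes in the table. Exactly at the annotated start, a C followed by at least 4 more pyrimidines stood in 13 of the 56 (23.2%), against 3.01% of all genes. These are the letters of a 5′TOP motif, and the count depends on how exactly the start is annotated. Read on either strand of the whole entry, the letters CCGGAAG, which ETS factors bind, were present in 23 (41.1%, against 9.93%), AAGATGG, the core of the YY1 site, in 9 (16.1%, against 7.28%), and GGGCGG, a Sp1 box, in 34 (60.7%, against 38.2%). The letters TATAAA between 40 and 15 bases before the start, on the strand of the gene, were in 0 of the 56 and in 2.41% of all genes. None of these searches used the read counts. The 43 genes with a pyrimidine run had a median log2 ratio of -0.15 and the 13 without one of -0.08, and the medians were 0.01 for the 23 genes with CCGGAAG and -0.19 for the 33 without it.

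The ribosomal protein genes were among the most heavily read genes of both libraries, and as a group they held nearly the same share of each. Together they had 1337330 reads in the control library, 9.69% of all reads (95% interval 9.68 to 9.71), and 1155596 in the RV-Cre library, 9.39% (9.37 to 9.41). All 76 passed the expression minimum of a log2 value of 4 in at least 1 library, and the single counts ran from 1349 to 101556 reads. The ratio of the summed normalised counts was 0.975 (95% interval 0.973 to 0.978). With *Rn45s* left out of the totals the shares were 10.6% and 11.0%, so that the sum was then higher in the RV-Cre library. In bulk RNA, fewer cells rich in ribosomes and less ribosomal protein mRNA per cell cannot be told apart. Of the 20 rows with most reads, 7 (control) and 9 (RV-Cre) were ribosomal protein genes, and of the 100 rows with most reads 34 and 36 were.

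Although nearly all the proteins are used in equal numbers, the read counts of their genes were spread widely. The gene with most reads had 47.4 times the reads of the gene with fewest among control reads and 69.0 times among RV-Cre reads. *Rplp1*, an acidic protein of the stalk that recruits translation factors, had 101556 and 93132 reads (7360 and 7569 CPM, reads scaled to a common library total), and its log2 ratio was 0.05. *Rps20*, a protein of the head of the 40S subunit, had 63146 and 82395 reads. *Rps14*, the 40S protein linked to anaemia in the human 5q deletion, had 40035 and 47819 reads. These 3 genes had the highest mean CPM. At the other end stood *Rpl23a* and *Rpl17*, at the exit of the peptide tunnel, and *Rpl12*, at the base of the stalk. *Rpl23a* had 2505 and 1665 reads, a log2 ratio of -0.41. *Rpl12* had 2293 and 1930 reads, a log2 ratio of -0.07. *Rpl17* had 2498 and 1862 reads, a log2 ratio of -0.25. The order of the levels was nearly kept between the libraries, with a Pearson correlation of the log2 values of 0.97 and a Spearman correlation of 0.96 over the 76 genes, which share both libraries and are not independent replicates.

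**Figure D1:**
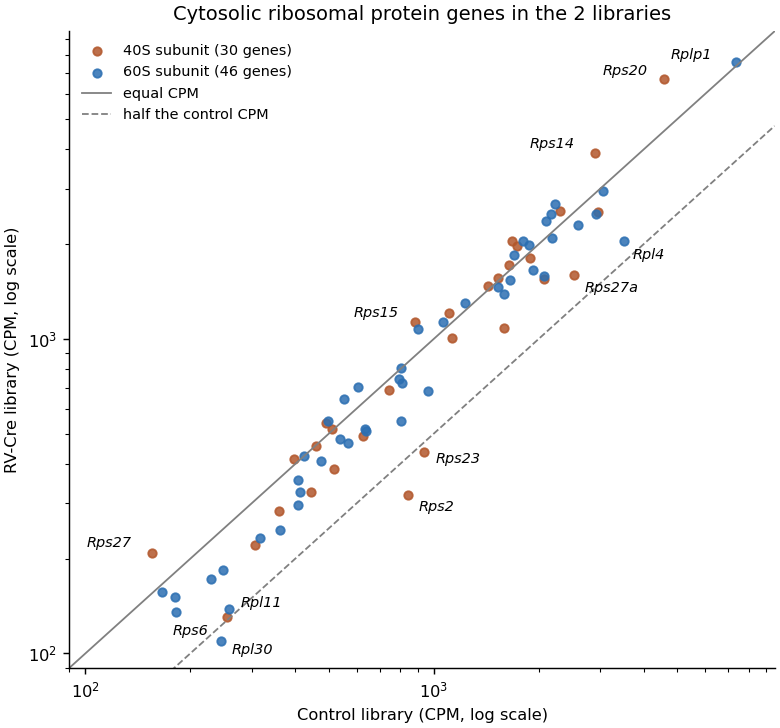
The level of each of the 76 genes in CPM, control (horizontal axis) against RV-Cre (vertical axis), both log scales, with 40S genes in orange and 60S genes in blue. Most points lie near the line of equal CPM, *Rps2*, *Rpl30* and *Rps23* lie furthest below it, and *Rps20* and *Rps14* lie above it at the upper end.

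The log2 ratios of the group were narrow and lay slightly below 0. The median was -0.12, with quartiles of -0.40 and 0.10, a SD over genes of 0.37 and a range from -1.39 to 0.56, and 46 of the 76 were below 0. Over all 12112 genes past the minimum the median was -0.01 and the quartiles -0.53 and 0.53. Where the mean log2 value was at least 10 (2473 genes), a level nearer to that of the family, the median was -0.10, the quartiles were -0.44 and 0.24 and the SD was 0.60. The ribosomal protein genes thus lay 0.11 below the median of all genes, but close to the median of the genes at a level nearer to theirs. Scaling to *Gapdh* instead put the ribosomal protein median at 0.30, above 0, and that of all genes at 0.41, and quantile normalisation put the ribosomal protein median at -0.0040. Within 0.5 log2 units of their own median lay 66 of the 76 (86.8%), against 65.7% of the other genes at a mean log2 value of at least 10, taken around the median of those genes.

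**Figure D2:**
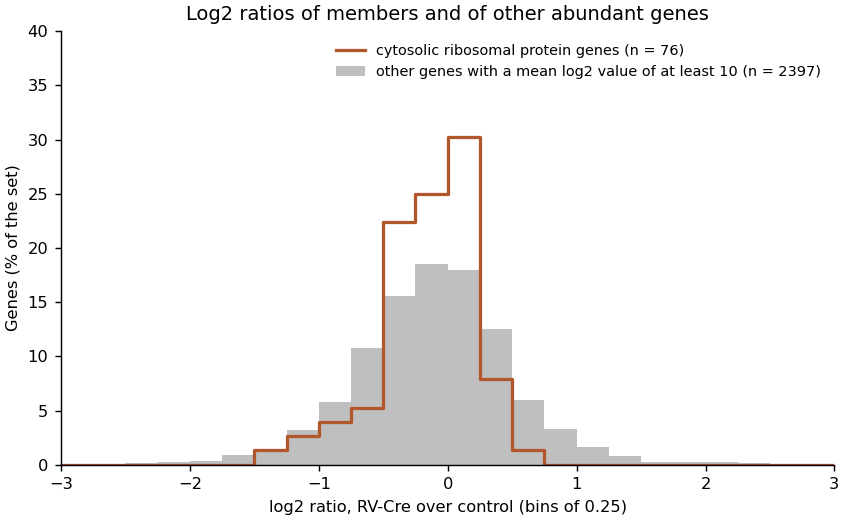
The share of genes in bins of 0.25 of the log2 ratio (RV-Cre over control), for the 76 ribosomal protein genes (orange line) and for the other 2397 genes with a mean log2 value of at least 10 (grey bars). The ribosomal protein genes are gathered between -0.50 and 0.25 with a tail toward lower values, and the grey bars reach further on both sides.

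By the 2-fold rule, 0 of the 76 genes were higher in the RV-Cre library, where 14.2% of all genes past the minimum and 3.28% of those with a mean log2 value of at least 10 were. At least 2-fold lower were 3 (3.95%), against backgrounds of 12.3% and 6.07%. At a log2 ratio of at least 0.32 in size, 4 genes (5.26%) were higher, against 33.4% and 20.2%, and 24 (31.6%) were lower, against 34.3% and 34.0%. The shares of higher genes lay under both backgrounds, and the share of lower genes past 0.32 lay near them. The remaining 48 lay within 0.32 log2 units of equality, and 69 lay within 1.5-fold. The 95% interval, which may be too narrow, was small beside these differences and reached at most 6.55% of the ratio away from it. It lay above 1 for 26 genes, below 1 for 45 and included 1 for 5.

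The 3 genes called lower at 2-fold were *Rps2*, *Rpl30* and *Rps23*. *Rps2*, a 40S protein at the entry of the mRNA channel, had 11597 control and 3918 RV-Cre reads (840 and 318 CPM), a ratio of 0.381 (counting interval 0.368 to 0.395) and a log2 ratio of -1.39. *Rpl30*, a small protein of the 60S subunit, had 3381 and 1349 reads, a ratio of 0.450 (0.422 to 0.480) and a log2 ratio of -1.15. The row *Gm12191*, a copy of *Rpl30* by the search described below, had 903 and 813 reads (log2 ratio 0.02). These reads were not added. Together with those of *Rpl30* they would bring the ratio above 0.5, so the call of *Rpl30* does not hold with them. *Rps23*, which lies at the decoding centre, had 12952 and 5387 reads, a ratio of 0.469 (0.455 to 0.485) and a log2 ratio of -1.09. The 3 intervals lay wholly below 0.5. All 3 calls ended with scaling to *Gapdh* (log2 ratios of -0.97, -0.73 and -0.67), and that of *Rps23* also ended with quantile normalisation (-0.96). Just above the line stood *Rps6*, the substrate of the S6 kinases, with 3511 and 1604 reads and a ratio of 0.516 (0.486 to 0.547), and *Rpl11*, which binds 5S rRNA and, when free, the p53 inhibitor Mdm2, with 3574 and 1706 reads and a ratio of 0.539 (0.508 to 0.571). *Rps27a*, made as a fusion of ubiquitin with a 40S protein, had 34772 and 19573 reads and a ratio of 0.635 (0.624 to 0.646). *Rpl4*, a 60S protein that reaches into the peptide tunnel, was chosen after its values were seen because it had the sixth lowest ratio, with 48330 and 25154 reads and a log2 ratio of -0.77.

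At the upper end all 5 genes were of the 40S subunit, as long as copy reads were not added. *Rps20* had a log2 ratio of 0.56 and a ratio of 1.47 (counting interval 1.46 to 1.49). *Rps27*, a zinc-finger protein of the 40S body, had 2142 and 2571 reads and a log2 ratio of 0.44, and *Rps14* one of 0.43. With the reads of its copy row *Rps27rt* added, *Rps27* lay at 0.24, below the 60S genes *Rpl8* (0.27) and *Rpl10a* (0.26). *Rps15* and *Rps16*, both of the 40S head, had 12150 and 13870 reads (0.37) and 23112 and 25172 reads (0.30). None of the 5 reached 1.5-fold, except that *Rps20* did without *Rn45s* (log2 ratio 0.65), *Rps14* did with quantile normalisation (0.64), and all 5 did with scaling to *Gapdh* (0.72 to 0.98). The log2 ratio went with the level, with a Spearman correlation of 0.43 between the ratio and the mean level over the 76 genes, a description across genes that share both libraries. The mean level holds the RV-Cre value, and with the control level alone the correlation was 0.33. Of the 5 genes with the lowest ratios, *Rps2*, *Rpl30*, *Rps6* and *Rpl11* lay under the family's median level in both libraries, 860 and 734 CPM.

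**Figure D3:**
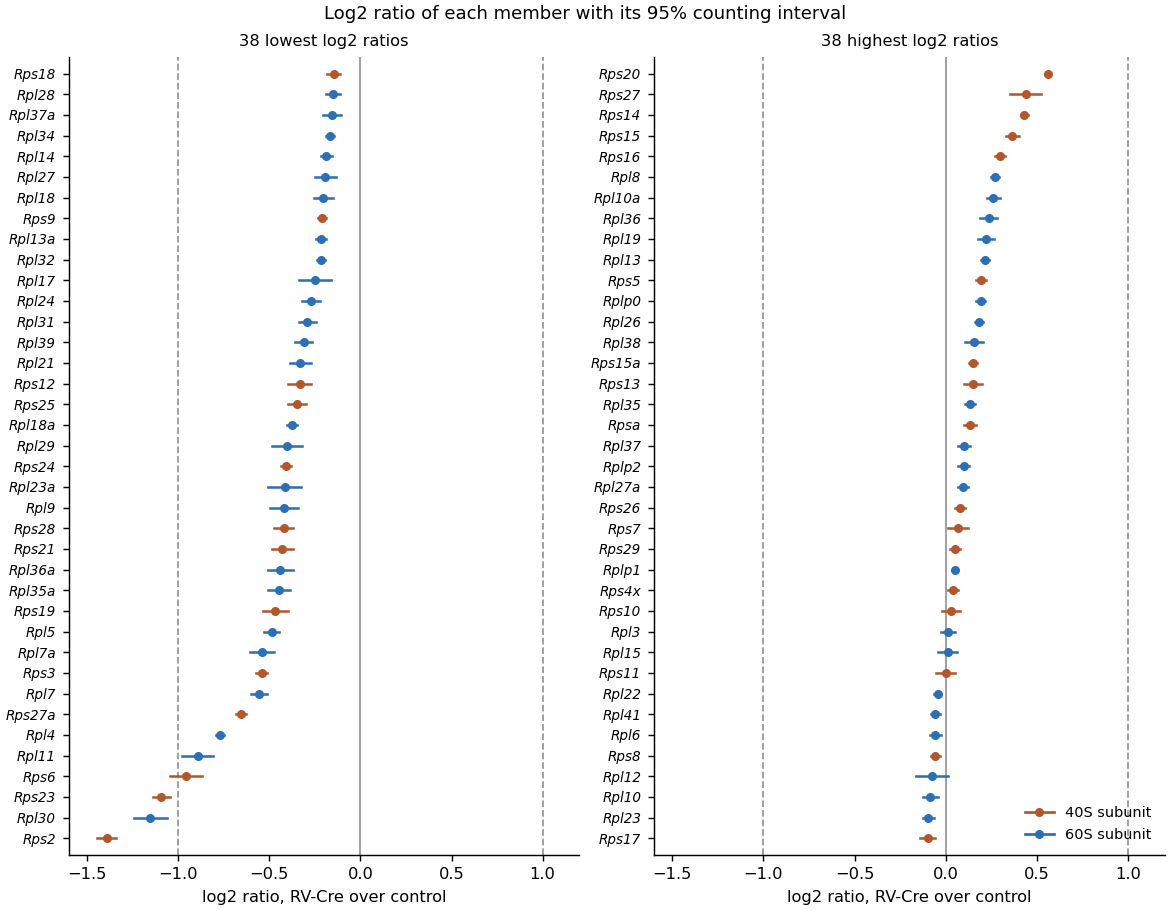
The log2 ratio (RV-Cre over control) of each gene with its 95% counting interval, the 38 lowest on the left and the 38 highest on the right, with 40S genes in orange and 60S genes in blue and dashed lines at 2-fold. Only *Rps2*, *Rpl30* and *Rps23* lie wholly beyond the lower line, no gene nears the upper one, and the interval of *Rps6* crosses the lower line.

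The 30 genes of the 40S subunit had 537660 and 482667 reads and a median log2 ratio of -0.03 (range -1.39 to 0.56), and the 46 of the 60S subunit had 799670 and 672929 reads and a median of -0.16 (range -1.15 to 0.27). The summed counts gave ratios of 1.01 and 0.950. The medians differed by 0.13, and the SD over genes was 0.46 in the 40S and 0.31 in the 60S subunit. Of the 40S genes 15 were below 0 and 15 above, and of the 60S genes 31 were below and 15 above. Within the 40S subunit, the 14 head genes had a median of -0.12, and 0 of them were called lower at 2-fold. The 16 body genes had a median of 0.02, and 2 (12.5%) were called lower, *Rps2* and *Rps23*. The body share lay near the 12.3% of all genes past the minimum and above the 6.07% found at mean log2 values from 10 upward. These counts are too small to tell head and body apart.

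Among the functional groups of the 60S subunit, the stalk and the 5S RNA partners stood on opposite sides of 0. The stalk proteins bring elongation factors to the ribosome. *Rplp0*, their anchor, had 24881 control and 25164 RV-Cre reads, a log2 ratio of 0.19. *Rplp2* had 16927 and 16053 reads, a log2 ratio of 0.10, so that all 3 stalk genes were above 0, although *Rplp2* lay at -0.10 once the reads of its copy row *Rplp2-ps1* were added. *Rpl5* and *Rpl11* enter the 60S subunit together with 5S rRNA. *Rpl5* had 13278 and 8396 reads, a ratio of 0.714 (counting interval 0.694 to 0.733) and a log2 ratio of -0.49, and *Rpl11* a log2 ratio of -0.89. The 6 genes at the exit of the peptide tunnel had a median of -0.06.

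Single members chosen for a role of their own were divided. Several of those below lay near 0, like the stalk genes, and *Rps3* and *Rps19* lay lower. *Rps6*, *Rpl11*, *Rps27a* and *Rpl5*, described above, lay lower as well. *Rpl22*, which is needed for the development of αβ T cells, had 42221 and 36289 reads and a log2 ratio of -0.04. *Rpl10*, one of the last proteins to join the 60S subunit, had 10960 and 9165 reads and a log2 ratio of -0.08. *Rpl38*, known for its role in the patterning of the axial skeleton, had 6838 and 6738 reads, a log2 ratio of 0.15. These 3 lay within 0.32 log2 units of equality. *Rpl41*, the smallest of the proteins, had 30152 and 25690 reads and a log2 ratio of -0.06. *Rpsa*, also described as a laminin receptor precursor, had 15258 and 14829 reads and a log2 ratio of 0.13. *Rps3*, a 40S protein of the mRNA entry that also takes part in DNA repair, stood lower, with 21905 and 13336 reads, a ratio of 0.687 (counting interval 0.672 to 0.702) and a log2 ratio of -0.54. *Rps19*, the gene most often mutated in Diamond-Blackfan anaemia, had 4245 and 2724 reads, a ratio of 0.724 (0.690 to 0.760) and a log2 ratio of -0.47. The 14 genes of the family known to be mutated in that anaemia had a median of -0.04 and ranged from -0.89 to 0.44.

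Features of the genes that the choice did not use were set beside the ratios. Small nucleolar RNAs, which guide the modification of ribosomal RNA, overlapped the span of 29 of the 76 genes, 57 in all. Whether they lie in introns was not checked. The median log2 ratio was -0.10 for these genes and -0.15 for the 47 without. The last exon, where 3′ reads gather, had a median length of 192.5 bases and ran from 63 to 3350 in the principal transcript models of GENCODE M21. The 29 genes with a last exon under 150 bases had a median log2 ratio of -0.17 and the 47 others of -0.08. Over the 76 genes, the Spearman correlation of last exon length with the log2 ratio was 0.03 and with the mean level 0.33. The exons of 14 genes overlapped those of another row of the tables, and these genes had a median log2 ratio of -0.25, against -0.06 for the 62 without. Among the overlaps were *Rps2* with *Snhg9* (630 and 524 reads) and *Rps27a* with *Clhc1* (2 and 29 reads). Whether reads were counted by strand is not given in the sources used here, so reads of such pairs cannot be told apart.

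Ribosomal protein genes have many processed copies in the mouse genome, and these can draw reads that belong to the genes, or lose reads to them. In 49 of the 76 genes, at least 1 stretch of 50 bases within the last 200 bases of the transcript was found exactly in another annotated gene, and the counts of these genes are uncertain for that reason. *Rps2* had such copies in 40 genes and *Rpl30* in 16, while *Rps23*, *Rpl11* and *Rpl4* had 0. This search found no copy of *Rplp2*, *Rpl37*, *Rpl14* or *Rpl31*, for which the tables hold rows named as copies, so the genes without a match are not free of copies. The median log2 ratio was -0.08 with a match and -0.16 for the 27 genes without. The share of the transcript end that was copied had a Spearman correlation of 0.05 with the log2 ratio, and the number of copies one of -0.37 with the mean level. Both are descriptions over 76 genes.
The rows named as copies drew many reads of their own. *Rplp2-ps1* had 60138 and 47465 reads, or 3.55 and 2.96 for each read of *Rplp2*. *Rpl37rt* had 47628 and 40067 reads, or 3.24 and 2.87 for each read of *Rpl37*. *Rpl34-ps1* had 33605 and 27431 reads, close to the reads of *Rpl34* itself (0.937 and 0.970 for each). Their log2 ratios were -0.17, -0.08 and -0.12, against 0.10 for *Rplp2*, 0.10 for *Rpl37* and -0.17 for *Rpl34*. With the copy reads added, *Rplp2* lay at -0.10 and *Rpl37* at -0.03, both on the other side of 0, and *Rpl34* at -0.14. *Rps27rt* had 1.90 and 1.53 reads for each read of *Rps27*, and the log2 ratio of both together was 0.24, against 0.44 for *Rps27* alone. *Rps19-ps3* had 2767 and 2920 reads where *Rps19* had 4245 and 2724, and the log2 ratio of both together was -0.14, against -0.47 for *Rps19* alone. With the reads of the -ps rows added to each gene that had one, the median log2 ratio of the 76 was -0.12 and 3 genes were at least 2-fold lower. These 3, *Rps2*, *Rpl30* and *Rps23*, had no -ps or rt row, so the addition could not end their calls. *Gm12191*, whose reads would end that of *Rpl30*, was not among the added rows. These copy rows were chosen for their symbols and named after their values were seen.

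**Figure D4:**
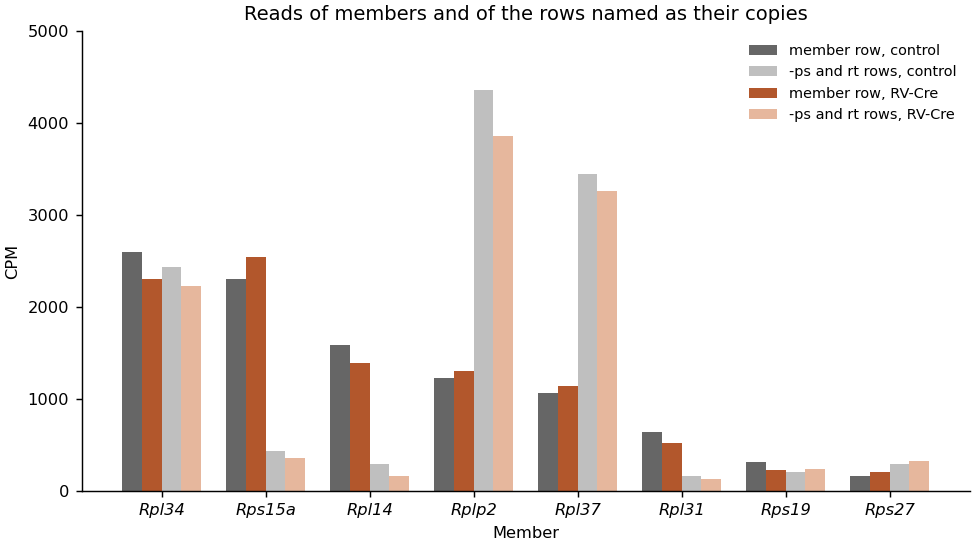
Levels in CPM of 8 ribosomal protein genes (dark bars) and of the summed -ps and rt rows of the same symbol (light bars), in the control library (grey) and the RV-Cre library (orange). The copies of *Rplp2*, *Rpl37* and *Rps27* exceed the genes themselves in both libraries, and those of *Rpl34* nearly equal it.

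Ribosomal proteins outside the rule gave values of the same size. Of 13 such genes listed, 12 had a row and 10 passed the minimum, with a median log2 ratio of -0.14. At 2-fold, 0 were called higher and 1 (10.0%) lower. The backgrounds for lower genes were 12.3% of all genes past the minimum and 6.07% of those with a mean log2 value of at least 10. *Fau*, in which a ubiquitin-like protein is fused to a ribosomal protein, had 5864 and 6208 reads and a log2 ratio of 0.26. *Rps3a1* had 22562 and 18350 reads and a log2 ratio of -0.12. *Rpl22l1*, a paralog that can take the place of *Rpl22*, was the one at least 2-fold lower, with 3847 control and 1675 RV-Cre reads, in a ratio of 0.491 (counting interval 0.464 to 0.520), and *Rpl22* itself lay near 0. *Rps27l*, a paralog of *Rps27*, had 3052 and 1949 reads and a log2 ratio of -0.47, against 0.44 for *Rps27* (0.24 with its copy reads). *Rpl39l* (13 and 18 reads) and *Rps4l* (50 and 56) had few reads, and *Rpl10l* and *Rpl3l* did not pass.

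The other genes of protein synthesis had lower medians than the ribosomal proteins, with 0 members of the factor lists at least 2-fold higher. The backgrounds were 14.2% of all genes past the minimum and 3.28% of those with a mean log2 value of at least 10. The 7 elongation factor genes had a median log2 ratio of -0.22, and 2 (28.6%) were at least 2-fold lower. The backgrounds were 12.3% of all genes and 6.07% of those with a mean log2 value of at least 10. *Eef1a1*, which carries aminoacyl-tRNA to the ribosome and has a 5′TOP mRNA like the ribosomal proteins, had 47116 and 15856 reads and a ratio of 0.380 (counting interval 0.373 to 0.387). *Eef2*, which moves the ribosome along the mRNA, had 39344 and 34990 reads and a log2 ratio of 0.01. The 33 initiation factor genes past the minimum had a median of -0.42, 28 were below 0 and 4 (12.1%) were at least 2-fold lower, a share near that of all genes. The lowest was *Eif2s3x*, a subunit of the factor that brings the initiator tRNA, with 5457 and 1832 reads and a log2 ratio of -1.40, and the highest *Eif3f*, with 5617 and 7196 reads and 0.53. The 19 genes of other 5′TOP mRNAs, some of which are in the lists above, had a median of -0.22. At least 2-fold lower were 3 (15.8%), against the same backgrounds of 12.3% and 6.07%.

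**Figure D5:**
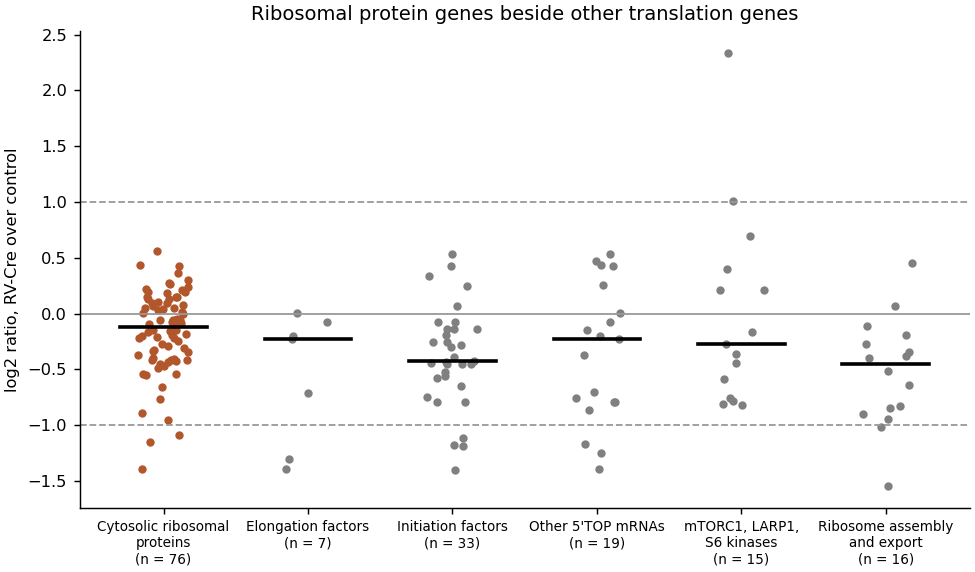
The log2 ratio (RV-Cre over control) of each gene past the minimum in 6 lists, with the list's median as a black bar and dashed lines at 2-fold. The ribosomal protein genes (orange, median -0.12) lie closest to 0 by their median, and the ribosome assembly and export list has the lowest median, -0.45.

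A list of mTORC1, LARP1, the S6 kinases and other genes of that pathway held 15 genes, with a median log2 ratio of -0.27. Of these 2 (13.3%) were called higher at 2-fold, near the 14.2% of all genes past the minimum. Called lower were 0, where 12.3% of all genes were. *Mtor*, the kinase itself, had 535 and 348 reads and a log2 ratio of -0.44. *Larp1* had 7842 and 4039 reads and a ratio of 0.581 (counting interval 0.559 to 0.604). *Eif4ebp1*, the translation repressor that mTORC1 phosphorylates, had 469 and 237 reads and a log2 ratio of -0.81. Lower values were found for these 3. *Rps6kb1*, an S6 kinase gene, had 1660 and 1704 reads and a log2 ratio of 0.21, and *Rps6kb2*, the other, had 13 and 62 reads and a ratio of 5.38 (2.93 to 10.7). *Tsc2*, an inhibitor of the pathway that was named after its values were seen, had 416 and 741 reads and a ratio of 2.01 (1.78 to 2.27), an interval that includes 2. *Deptor* had the lowest ratio of the list, with 120 and 60 reads and a log2 ratio of -0.82.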

How the data were processed

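QuantSeq 3′ RNA-seq of 1 control and 1 RV-Cre library was analysed. The authors deposited raw counts of reads per gene symbol. The submitters' processing notes name bcl2fastq 2.20.0.422, Bowtie2, bedtools and mm10, without saying what each was used for. The counting rule and its use of strand are not given in the sources used here. Counts carry no molecular identifiers. Both tables held 23282 rows in the same order, and 79 rows that share a symbol (none a ribosomal protein gene) were kept apart.

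Counts were scaled with TMM (edgeR 4.0.16, R 4.3.3; size factors 1.06 and 0.941). The minimum was a log2 value of 4, that is 15 normalised reads, in at least 1 library, and a gene was called at 2-fold. Intervals were exact 95% Clopper-Pearson intervals (scipy 1.17.1). The calculation was tested on simulated data. Gene models came from GENCODE M21 (GRCm38, also named mm10) and starts from RefSeq on GRCm38.p6.

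The ribosomal protein genes and the lists were chosen with earlier results of these data known. Genes were named by a rule: *Ptk2*, the 3 genes with most and 3 with fewest reads, the 5 highest and 5 lowest log2 ratios, each gene at least 2-fold different, 14 genes chosen for their role, the ends of each list where the log2 value reached 6, and 11 genes of the lists chosen for their role. One of these is not reported here. Alternatives were other scalings (library total, with and without *Rn45s* or the family, DESeq2 1.42.0 size factors, median centring, *Gapdh*, quantile), pseudocounts of 0.1 and 10, other minimums and folds, and added copy reads. Addition of the rt rows and the medians without copies and without the 3 lowest genes were chosen after seeing the data.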

Additional observations from a re-analysis of the deposited data

How the results depend on the processing

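No paired analysis was possible because only 1 library stood for either condition. The ratio of the summed normalised counts, 0.975, lay below 1 with scaling by library total (0.969), DESeq2 size factors (0.966), library total without the ribosomal protein rows (0.966), median centring (0.9815), -ps reads added (0.969), -ps and rt reads added (0.9685) and without the 3 genes with most reads (0.929). It lay above 1 without *Rn45s* (1.04) and with scaling to *Gapdh* (1.30). *Gapdh* itself had 956 and 634 reads. The median log2 ratio, -0.12, was -0.0319 without *Rn45s*, -0.0040 with quantile normalisation and 0.30 with *Gapdh*. Why these values shifted was not tested. Scaling to *Gapdh* moved the median of all genes past the minimum from -0.01 to 0.41, and the ribosomal protein median stayed 0.11 below it, whereas it was 0.05 below it with quantile normalisation. The 3 genes at least 2-fold lower became 0 with *Gapdh*, 24 at a log2 ratio of 0.32 in size, 7 at 1.5-fold and 0 at 3-fold, and the 0 higher became 4 at 0.32. The difference of the subunit medians, 0.13, was 0.098 with quantile normalisation, 0.126 with -ps reads added and 0.093 from summed reads per subunit. Scaling by library total shifts both subunits alike, and all genes passed the other minimums, so those runs could not change it. Of 25 named genes under 7 scalings, 14 of 175 log2 ratios had the other sign, 6 of them with *Gapdh*, 4 without *Rn45s* and 4 with quantile normalisation. Depth was no limit for single ribosomal protein genes, each with at least 1349 reads per library, and the lack of a replicate library limits all values.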

Other observations

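The genes that assemble ribosomes and carry their proteins had lower log2 ratios than the ribosomal protein genes themselves. All 16 genes of this list passed the minimum, with a median of -0.45 and 14 below 0, and 0 were called higher and 2 (12.5%) lower at 2-fold. The backgrounds were 14.2% and 12.3% of all genes past the minimum, and 3.28% and 6.07% of those with a mean log2 value of at least 10. *Nmd3*, the adaptor that takes the 60S subunit out of the nucleus, had 963 control and 292 RV-Cre reads, in a ratio of 0.342 (95% interval 0.299 to 0.390). *Ltv1*, an assembly factor of the 40S subunit named after its values were seen, had 1129 and 493 reads and a ratio of 0.493 (0.442 to 0.548). *Riok1*, a kinase of late 40S maturation, was the highest, with 1627 and 1974 reads and a log2 ratio of 0.45.

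The proteins of the mitochondrial ribosome are encoded by a separate family. Its 77 genes past the minimum had 93022 and 71413 reads and a median log2 ratio of -0.29, against -0.12 for the cytosolic family. By the 2-fold rule 0 of them were higher and 7 (9.09%) lower, under the 14.2% and 12.3% of all genes past the minimum. Among genes with a mean log2 value of at least 10 these shares were 3.28% and 6.07%, so the share of lower genes lay above that background. The range, -2.08 to 0.64, was wider than in the cytosolic family at a much lower level of reads per gene.

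*Rpl14-ps1* (3999 and 1931 reads, log2 ratio -0.88) and *Rps15a-ps4* (598 and 198 reads, log2 ratio -1.42) lay lower than *Rpl14* (log2 ratio -0.19) and *Rps15a* (0.15), the genes they are named for, and both were chosen after their values were seen.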
